A study of Mus musculus with 15 samples.

Results

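The genes examined here are 39 synaptic adhesion molecule genes of the mouse, taken by name and described through the CpG positions that fall inside them or within 2 kb of either end. The assay was reduced representation bisulfite sequencing, which cuts genomic DNA with a restriction enzyme and reads the short CpG-rich fragments after bisulfite has converted unmethylated cytosines. The tissue was micro-dissected dentate gyrus, the input region of the hippocampus. The 15 mice were C57BL/6JRj females, 7.5 months old. In the standard group, 5 mice lived in standard cages for 6 months. In the enriched group, 5 mice lived in an enriched environment for 6 months. In the group called withdrawal here, 5 mice had 3 months of enrichment and then 3 months of standard housing. The labels give no genetic modification, cage or litter for these mice. Each of the 39 genes had at least 1 CpG row, where a row is the cytosine of a CpG on 1 strand, and together they held 1762 of the 455664 CpG rows on the autosomes and the X chromosome. Of these, 428 rows had a value in each of the 15 mice, out of 113832 such rows in the table. The share of the 1762 rows with a value ran from 66.0% in standard mouse 1 to 97.8% in withdrawal mouse 4. The table holds percentages with no read counts, so the number of reads behind any of them is unknown.

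Synaptic adhesion molecules are membrane proteins that span the synaptic cleft, hold the presynaptic and postsynaptic membranes together and organise the machinery on both sides. On the presynaptic side, neurexins and the LAR-type receptor tyrosine phosphatases act as hubs that bind many partners, among them the postsynaptic neuroligins and LRRTM proteins and some LRFN proteins. FLRT proteins bind latrophilins and Unc5 receptors. SynCAMs, cadherins and contactins bind members of their own family or related proteins across the cleft or along the axon. In the dentate gyrus such molecules sit at the perforant path synapses onto granule cells and at the mossy fibre synapses that granule cells make. In mammalian DNA, most CpGs are methylated, while CpG-dense stretches at transcription starts are usually free of methylation.

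Starts listed by RefSeq were available for 25 of the 39 genes, 35 starts in all, and the 250 bases before 7 of these starts held CpG rows. The upstream stretches of 4 of them are printed from RefSeq (GRCm38.p6) to show what an unmethylated start in this family looks like. They lie at a gene's outer start (Cadm4), just inside it (Flrt2) and deep inside a gene (Nrxn3, Ptprs). The Flrt2 span begins at chr12:95692006, so most of its printed stretch lies within the gene. Capitals mark the CpGs that have a methylation value, and each stretch reads in the direction of the gene.
Flrt2, chr12:95691976-95692225, plus strand: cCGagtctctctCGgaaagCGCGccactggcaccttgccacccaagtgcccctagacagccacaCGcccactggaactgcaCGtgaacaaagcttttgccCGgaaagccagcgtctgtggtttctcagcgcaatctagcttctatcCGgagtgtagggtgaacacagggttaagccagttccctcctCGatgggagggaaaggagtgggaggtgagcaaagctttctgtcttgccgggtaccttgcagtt
Cadm4, chr7:24481773-24482022, plus strand: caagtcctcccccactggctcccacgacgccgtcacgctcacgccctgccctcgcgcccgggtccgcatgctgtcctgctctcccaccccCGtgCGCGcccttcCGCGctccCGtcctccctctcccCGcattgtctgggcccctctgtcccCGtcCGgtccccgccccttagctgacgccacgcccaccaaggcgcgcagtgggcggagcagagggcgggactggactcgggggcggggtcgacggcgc
Nrxn3, chr12:89812233-89812482, plus strand: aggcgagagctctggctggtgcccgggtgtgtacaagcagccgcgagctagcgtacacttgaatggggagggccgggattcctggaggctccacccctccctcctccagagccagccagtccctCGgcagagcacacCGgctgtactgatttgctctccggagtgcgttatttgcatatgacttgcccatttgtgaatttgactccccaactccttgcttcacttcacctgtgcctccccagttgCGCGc
Ptprs, chr17:56462222-56462471, minus strand: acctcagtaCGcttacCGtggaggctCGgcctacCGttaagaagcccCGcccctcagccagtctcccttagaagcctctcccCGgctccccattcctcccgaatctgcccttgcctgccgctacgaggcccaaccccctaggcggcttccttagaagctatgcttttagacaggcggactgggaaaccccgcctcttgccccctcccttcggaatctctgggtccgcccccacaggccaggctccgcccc
The measured CpGs in these stretches were close to unmethylated. Flrt2 had 9 of its 12 CpGs measured, with a mean over mice of 2.07% and no row above 6.43%. Cadm4 had 9 of 30 CpGs measured, with a mean of 1.88% and a highest row of 11.4%. The internal Nrxn3 start had 4 of 12 CpGs measured, with a mean of 1.81%, and the internal Ptprs start had 6 of 15, with a mean of 2.44% and a highest row of 11.4%. The sequence CCGG, the site of the enzyme MspI that is commonly used for this assay (the labels do not name the enzyme), occurs 3 times in the Flrt2 stretch, 2 times in Cadm4, 4 times in Nrxn3 and 1 time in Ptprs. It reads the same on both strands. It is found in 47.1% of all 250-base stretches before listed RefSeq starts, so a gene without it there can have a start that the assay does not read.

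Across the 39 genes the rows were either nearly unmethylated or nearly fully methylated, with fewer in between. Of the 1762 rows, 839 averaged below 20%, 380 from 20% to 80%, and 543 above 80%, and the mean over rows was 40.9%. Position in the gene separated these levels. The 336 rows within 1 kb of a gene end averaged 8.73%, and 88.1% of them were under 20%. The 1417 rows inside a gene and over 1 kb from both ends, called body rows here, had a mean of 48.8%, with 37.7% of rows under 20% and 37.7% above 80%. Across all protein-coding genes the same zones had means of 7.48% and 45.1%, so the contrast between ends and bodies is shared with other genes.

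**Figure D1:**
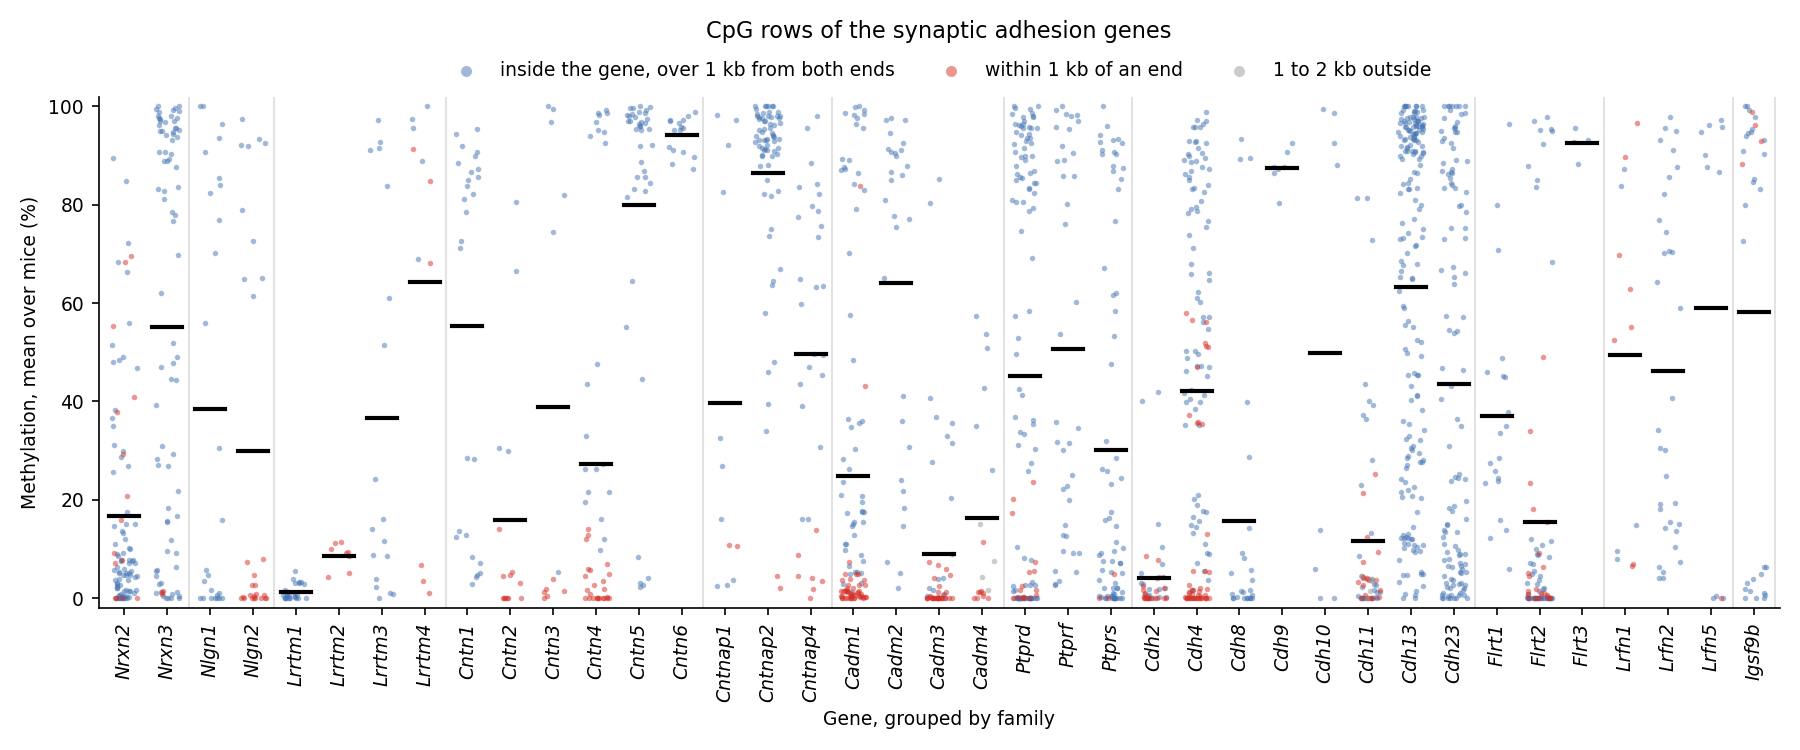
Methylation of every CpG row of the 39 genes (vertical axis, mean over the mice with a value, in percent), by gene and grouped by family, with body rows in blue, rows within 1 kb of an end in red and rows 1 to 2 kb outside in grey. Black bars give the mean over a gene's rows, from 1.27% in Lrrtm1 to 94.1% in Cntn6, and most red points lie near 0.

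Gene by gene, 22 of the 39 had both end rows and body rows. The body was higher than the end in 19 of them. The median end level over the 23 genes with end rows was 3.97%, and 17 of the 23 were under 10%. The median body level over 38 genes was 51.1%, with 6 genes under 20%, 26 between 20% and 80%, and 6 above 80%. Nlgn2, the neuroligin of inhibitory synapses, had one of the wider gaps, with 1.56% over 18 end rows and 81.0% over 10 body rows. Cntnap2, which gathers potassium channels beside the node of Ranvier and is among the longest genes of the mouse, had 3.27% over 2 end rows and 88.9% over 69 body rows.

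The 3 genes whose end rows were higher than their body rows were Nrxn2 (24.2% against 15.2%), Lrfn1 (55.0% against 40.7%) and Igsf9b (94.0% against 53.1%). In Nrxn2 and Lrfn1 the 2 ends differed. In Nrxn2, 6 rows at the lower coordinate (chr19:6418756) had a mean of 2.72% and 9 rows at the higher coordinate (chr19:6533217) had 38.5%. In Lrfn1, which binds PSD-95, the lower end (chr7:28451893) had 6.75% over 2 rows and the higher end (chr7:28468242) had 71.1% over 6 rows. Igsf9b, an adhesion protein of inhibitory synapses, had rows within 1 kb of its higher end only (chr9:27357549, 4 rows). Another 12 rows (chr9:27300352-27300634, mean 2.47%) count as body rows here but lie within 2 kb of its lower end (chr9:27299104). Its body windows at chr9:27333001-27334000 and chr9:27342001-27343000 averaged 96.6% and 87.7%. The 2 ends also differed in Cdh4, with 1.32% over 35 rows at one end and 46.9% over 11 rows at the other. The strand of these 4 genes is not in the reference tables used here. Where the strand was known, 12 genes had rows within 1 kb of the start of the gene span, and each of these starts was below 10%, from 0% in Lrfn5, which rests on 1 row, to 7.86% in Flrt2.

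Among the presynaptic hubs, the neurexins had a body mean of 35.7% over 160 rows and differed from each other. Nrxn2 was low, with 15.2% in its body, and Nrxn3 stood at 57.2%. Within 1 kb of a listed start, 16 body rows of Nrxn3 averaged 2.09%, and its other 62 body rows averaged 71.4%. The LAR-type phosphatases had a body mean of 44.5% over 211 rows. Ptprd and Ptprf were at 51.4% and 50.7%, and Ptprs was lower at 31.3%. All 3 carried rows near 0 and rows near 100%.

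Among the postsynaptic partners, LRRTM bodies had the lowest family mean, 22.9% over 50 rows. Of these rows, 27 belonged to Lrrtm1, and each was under 6%, with a mean of 1.27%. Lrrtm2 had only end rows, 8 of them with a mean of 8.62%. Lrrtm3 stood at 36.7% and Lrrtm4 at 90.2% in their bodies, the latter over 5 rows. Lrrtm1, Lrrtm2 and Lrrtm3 lie inside the alpha-catenin genes Ctnna2, Ctnna1 and Ctnna3, so their rows are also rows of those genes. Neuroligin bodies had a mean of 50.3% over 36 rows, with Nlgn1, the neuroligin of excitatory synapses, at 38.5%. Of the Nlgn1 body rows, 11 lay within 1 kb of a listed start (mean 2.13%), and the other 15 averaged 65.1%. FLRT bodies had a mean of 26.9% over 79 rows. Flrt2 was at 18.4%, Flrt1 at 37.0% and Flrt3 at 92.5% over 4 rows, and Flrt1 and Flrt3 lie inside Macrod1 and Macrod2. Of the 55 Flrt2 body rows, 31 lay in 1 window (chr12:95695001-95696000, mean 1.33%) that comes within 3245 bases of a listed start. Farther in, 5 rows at chr12:95724001-95725000 averaged 93.0%. LRFN bodies had a mean of 49.6% over 48 rows, with Lrfn1 at 40.7%, Lrfn2 at 46.3% and Lrfn5 at 64.9%.

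The contactins and their partners, the Cntnap proteins, had the highest body means of the families. Contactin bodies had a mean of 70.5% over 114 rows and Cntnap bodies 78.6% over 103 rows. Each of the 16 rows of Cntn6 was above 87%, with a mean of 94.1%. Cntn5 stood at 79.9% and Cntn3 at 76.3%, while Cntn1, Cntn2 and Cntn4 were between 51.9% and 55.9%. The 20 body rows of Cntn1 over 1 kb from a listed start averaged 71.7%. Contactin ends were low, at 2.83% over 42 rows. Cntnap1, the partner of contactin at the paranodal junction of myelinated axons, had 45.5% in its body and Cntnap4 had 62.7%.

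Among the families that bind their own kind, SynCAM bodies had a mean of 45.9% over 107 rows and SynCAM ends 2.74% over 90 rows. Cadm3 had the lowest SynCAM body, 23.0%, with 43 of the gene's 50 rows, ends included, also lying in Aim2 or Ackr1, and Cadm2 the highest, 64.0%, with Cadm1 at 44.0% and Cadm4 at 44.3%. The 8 cadherin genes spanned nearly the whole scale. Cdh2, which encodes N-cadherin, the classical cadherin of central synapses, had a body mean of 7.28%, and 39 of its 41 rows were under 20%. Cdh8 and Cdh11 were also low, at 15.7% and 17.5%. In Cdh8, 19 of the body rows lay within 1 kb of a listed start (mean 2.01%). The 6 body rows away from it averaged 59.1%. In Cdh11, 9 body rows at chr8:102783888-102783997, within 2 kb of a gene end, averaged 3.18%. Another 6 body rows of Cdh11, at chr8:102726745-102726868, averaged 42.2%. Cdh23, known from the tip links of hair cells, stood at 43.6% (26 of its 120 rows also lie in Vsir), Cdh10 at 49.8%, Cdh4 at 58.0% and Cdh13, a cadherin with a lipid anchor in place of a transmembrane domain, at 63.3% over 186 rows. Cdh9, a cadherin of mossy fibre synapses, was the highest at 87.6%, over 7 rows. Longer genes tended to have more methylated bodies (Pearson's r 0.39 and Spearman's rho 0.45 between log10 of the gene's length and its body mean, over 36 genes, given as a description since the genes share libraries). Body rows of a short gene lie nearer to its ends, and the part of that distance in these correlations was not tested.

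Low methylation was not limited to gene ends. In 1 kb windows with at least 4 rows, 120 windows lay inside a gene only, of which 44 averaged below 20%, 35 from 20% to 80%, and 41 above 80%. Of the low windows, 27 were over 10 kb from both ends of their gene, spread over 14 genes and holding 215 rows. The window of Ptprd at chr4:76450001-76451000, 508.8 kb from the nearer end of the gene, had 30 rows with a mean of 1.36%. Nrxn3 at chr12:89812001-89813000 had 16 rows with a mean of 2.09%, and this window holds the internal listed start printed earlier. Nrxn2 at chr19:6502001-6503000 had 23 rows with a mean of 3.17%. Neurexin genes are known to be read from more than 1 promoter, the inner of which gives the shorter beta form. Nlgn1 at chr3:26153001-26154000 (8 rows, 0.932%), Lrrtm1 at chr6:77243001-77244000 (15 rows, 1.58%) and Ptprs at chr17:56462001-56463000 (6 rows, 2.44%) were low windows within 1 kb of a listed start. Cdh23 at chr10:60347001-60348000 (11 rows, 2.49%) was 44.3 kb from the nearer end of Cdh23 but within 1 kb of an end of Vsir, a gene that lies inside it. The other 26 low windows had no end of another protein-coding gene within 1 kb.

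With distance taken from the nearest listed start, methylation was higher in each class farther out. It averaged 2.91% over 177 rows within 1 kb, 5.34% over 59 rows between 1 and 2 kb, 17.4% over 106 rows between 2 and 10 kb, 60.0% over 195 rows between 10 and 100 kb, and 67.8% over 343 rows beyond that. The rows within 1 kb came from 14 genes, whose means ran from 0.115% to 8.43%. Even beyond 100 kb, 20.7% of rows were under 20%. The listed starts do not include the outer start of every gene, so some of these low rows lie at one. At the outer start of Cntn4, 22 rows (chr6:105677001-105678000, mean 3.05%) lay 440862 bases or more from the nearest listed start.

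**Figure D2:**
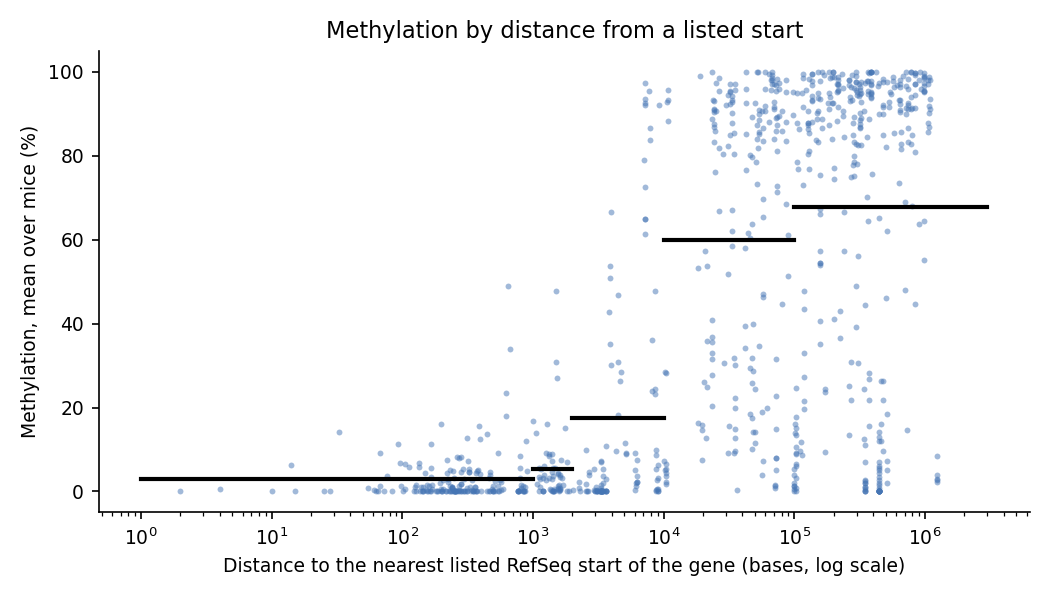
Methylation of the CpG rows of the genes with listed RefSeq starts (vertical axis, mean over mice, in percent) against the distance to the nearest listed start of the same gene (horizontal axis, bases on a log scale, with rows at the start drawn at 1). Black bars give the mean of each distance class, from 2.91% within 1 kb to 67.8% beyond 100 kb.

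The 2 strands of a CpG are read independently, which gives a check within the table. Both strands had a row at 108 CpGs of these genes. Their means differed by a median of 1.87 percentage points, and 100 of the 108 pairs were within 10 points. The widest pair, in Cdh11 at chr8:102726816, had 72.8% on the plus strand and 43.6% on the minus strand.

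How far the mice differed among themselves depended on the level. Of 72 windows of 1 kb with at least 3 rows measured in all 15 mice, 20 had a mean between 20% and 80%, and their median SD over the mice was 11.6 points, beside 11.0 points over all 3072 such windows in the genome. Among these 20 windows of middle level, the widest spread was in Cdh13 at chr8:119005001-119006000, where 3 CpGs within 62 bases gave an SD of 25.4 points. The standard mice there read 67.1%, 69.9%, 75.4%, 78.9% and 47.3%, the enriched mice 42.5%, 100%, 70.7%, 48.2% and 8.28%, and the withdrawal mice 27.6%, 60.7%, 92.7%, 38.6% and 86.9%. The groups overlapped, and the enriched mice alone ran from 8.28% to 100%. Among the same 20, Lrfn2 at chr17:49032001-49033000 followed with 21.6 points, then Cdh4 at chr2:179489001-179490000 with 15.8, Cntn1 at chr15:92234001-92235000 with 13.5 and Nrxn2 at chr19:6464001-6465000 with 13.3. Another Nrxn2 window, chr19:6513001-6514000, had the smallest SD of the 20, with 9 CpGs, a mean of 21.2% and an SD of 5.22 points. The next smallest of the 20 were in Flrt2 at chr12:95691001-95692000 (6.81 points), Lrfn1 at chr7:28468001-28469000 (7.46), Cdh4 at chr2:179767001-179768000 (7.60) and Flrt1 at chr19:7093001-7094000 (8.42). Nrxn2 and Cdh4 thus had a window in both sets.

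**Figure D3:**
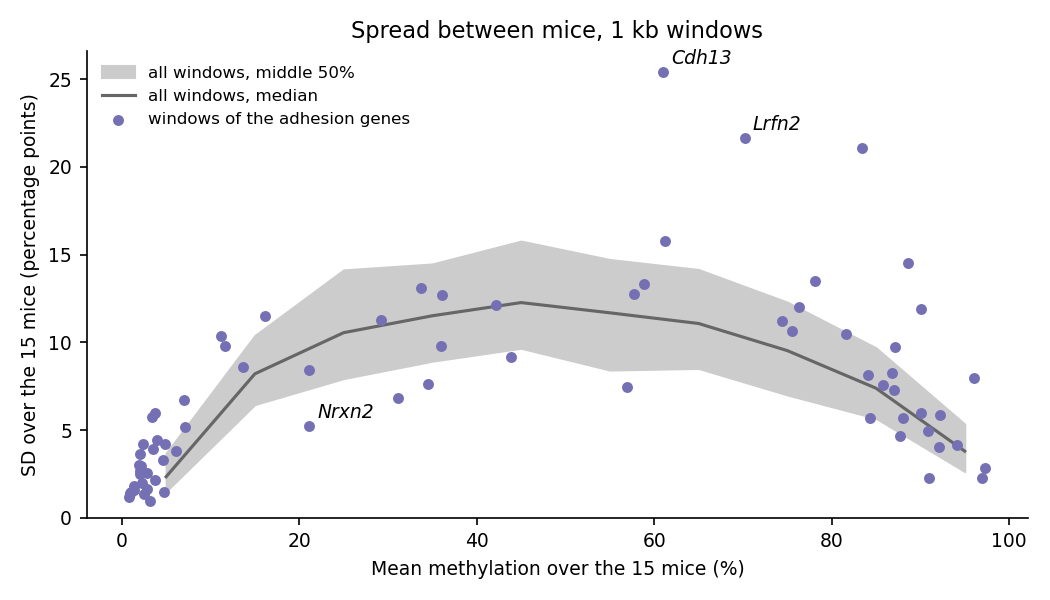
SD over the 15 mice (vertical axis, percentage points) against mean methylation (horizontal axis, percent) for the 72 windows of the adhesion genes (purple), with the median (line) and the middle 50% (grey band) of all 15677 windows. The labelled Cdh13 and Lrfn2 windows have SDs of 25.4 and 21.6 points and the labelled Nrxn2 window has 5.22.

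Housing was compared next, asking whether enrichment changed methylation in these genes and whether mice withdrawn from it differed from either other group. Over the rows measured in all mice (361 body rows and 64 end rows), the bodies averaged 50.4% ± 1.43 (SD, n = 5) in standard mice, 50.3% ± 1.19 in enriched mice and 51.0% ± 0.741 in withdrawal mice. The ends averaged 12.7% ± 0.694, 12.3% ± 2.55 and 11.9% ± 1.60. Neurexin bodies were at 33.7% ± 2.29, 35.5% ± 2.57 and 35.5% ± 1.57 in the same order. Cadherin bodies were at 56.9% ± 2.45, 54.3% ± 1.79 and 55.9% ± 0.844, and LRFN bodies at 59.3% ± 7.96, 68.9% ± 4.79 and 64.1% ± 4.04. The LRFN values rest on 11 rows, 7 of them in Lrfn2. Over all body rows, standard and enriched mice were at 44.8% and 44.9% in Lrfn2, 41.5% and 42.7% in Lrfn1, and 63.5% and 66.1% in Lrfn5. The tissue is a mixture of cells, and a shift in its cell types cannot be told apart from a shift of methylation within cells.

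**Figure D4:**
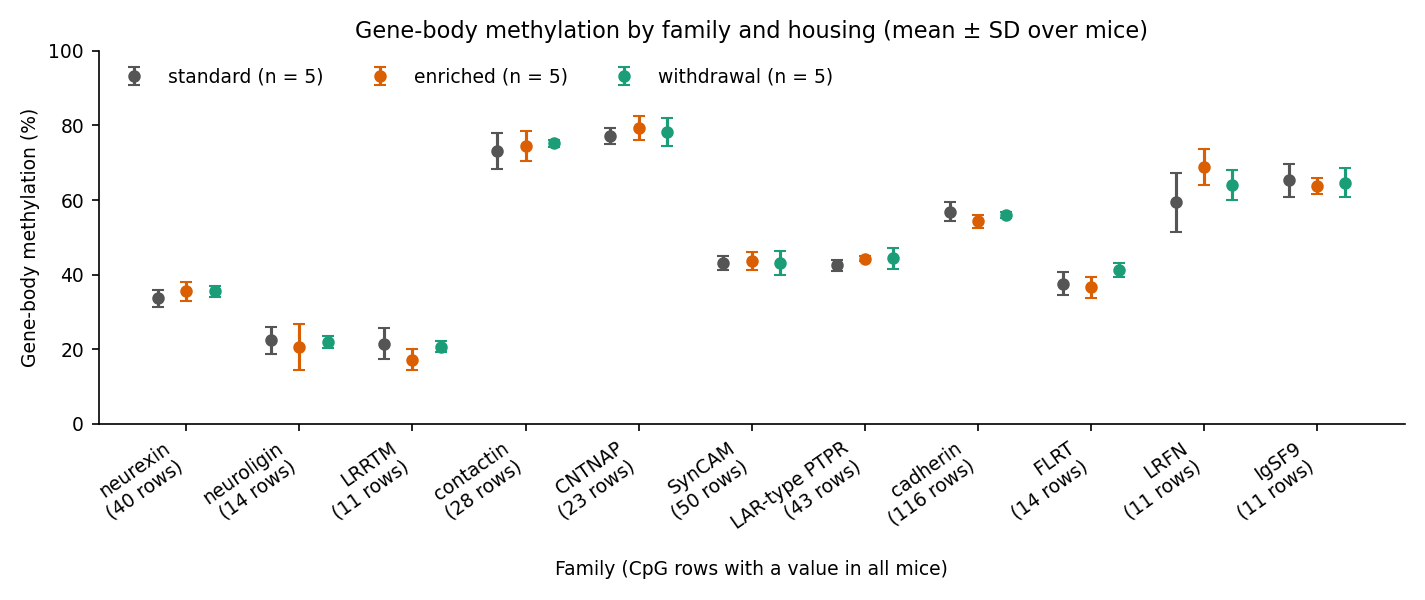
Gene-body methylation (vertical axis, percent) by family and housing group, over the CpG rows with a value in all mice. Points are means and bars SDs over 5 mice. The widest gap between group means over these rows is in the LRFN family (11 rows), 59.3% in standard and 68.9% in enriched mice.

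No feature of these genes passed the test. Under limma, each CpG, 1 kb window, gene start, gene end and gene body was compared on a log-odds scale, fitted over all features of its kind in the genome with Benjamini-Hochberg adjustment. The threshold for a call was an adjusted p of 0.05. CpGs could be tested in 36 members, and Lrrtm2, Cntnap1 and Flrt3 had no row measured in all mice. Of 399 CpGs tested, 0 were called in any of the 3 comparisons, beside 0% of the 100562 CpGs tested genome-wide. At an unadjusted limma p under 0.05 there were 18 of 399 for enriched against standard, beside 5.15% genome-wide. For withdrawal against standard there were 18, beside 4.42%, and for withdrawal against enriched 10, beside 4.3%. With 5 mice a group and this many CpGs, a count of 0 calls does not show that single CpGs did not differ. As shares of the 399 these are 4.51%, 4.51% and 2.51%, near or below the genome-wide shares.

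The wider features gave the same count of calls. Of 72 windows 0 were called, beside 0% genome-wide, and 6, 5 and 1 (8.33%, 6.94% and 1.39%) had an unadjusted limma p under 0.05 in the 3 comparisons, beside 5.71%, 4.8% and 4.39%. Gene starts could be tested in 4 members, with 0 called beside 0% and 1, 0 and 0 at an unadjusted p under 0.05, beside 5.14%, 5.01% and 5.07%. Gene ends were tested in 11 members with 0 called beside 0%, and 1, 0 and 0 at an unadjusted p under 0.05, beside 5.37%, 4.85% and 5.13%. The 1 start and the 1 end are the same 3 rows of Cntn3, so they are 1 measurement. The start and end values of Flrt2 and of Cntn4 are likewise identical. Gene bodies were tested in 27 members with 0 called, beside 0.0427% for enriched against standard (2 of 4683 genes, neither of them a member) and 0% for the others. Bodies with an unadjusted limma p under 0.05 numbered 2, 1 and 0, beside 6.26%, 5.19% and 4.19%. The median difference between enriched and standard mice was 0.0851 points over member bodies and 0.16 points over all bodies.

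Among single CpGs the smallest p was in Flrt2, at chr12:95692762 on the minus strand, 536 bases from the listed start and downstream of the stretch printed earlier. The standard mice had 27.8%, 16.7%, 58.8%, 32.4% and 0%. The enriched mice were all at 0%, and the withdrawal mice were at 0% except for mouse 4 with 2.70%. Thus 4 of 5 standard mice were above every mouse of the other groups and standard mouse 5 was level with them. The difference from standard was -27.1 points in enriched mice (log2 odds -2.76, SE 0.62, limma adjusted p = 0.506) and -26.6 points in withdrawal mice (log2 odds -2.63, SE 0.62, adjusted p = 0.692). Without standard mouse 5 both passed, with limma adjusted p = 0.0142 and 0.0189. Over 21 alternatives the adjusted p ran from 0.0142 to 0.886 and from 0.0189 to 0.965. The 2 CpGs measured 34 and 50 bases away on the same strand were at 0% in the standard mice, and the paired cytosine on the plus strand had no row. The window that holds these 3 CpGs, chr12:95692001-95693000, read 9.05% ± 7.22 in standard mice, 0% after enrichment and 1.20% ± 1.66 after withdrawal, with adjusted p = 0.653 and 0.995 against standard. The Flrt2 start had 7 rows measured in all mice, the CpG at chr12:95692762 among them. Over these 7 the groups had 22.1% ± 7.60, 17.2% ± 4.70 and 18.4% ± 2.01 (limma adjusted p = 0.862 between enriched and standard). Over all 22 rows of the start the groups were at 8.55%, 6.71% and 8.35%.

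In Ptprf, a LAR-type phosphatase, the body window chr4:118218001-118219000 held 3 CpGs within 32 bases. The standard mice had 55.8%, 73.8%, 85.3%, 89.3% and 91.3%, the enriched mice 88.7%, 100%, 88.2%, 90.3% and 96.9%, and the withdrawal mice 100%, 100%, 100%, 94.7% and 96.6%. Every withdrawal mouse was above every standard mouse, while enriched and standard mice overlapped. The difference was 19.2 points for withdrawal against standard (log2 odds 2.16, SE 0.48, limma adjusted p = 0.717) and 13.7 points for enriched against standard (adjusted p = 0.808). This was the 1 member window of 72 whose groups did not overlap in withdrawal against standard, beside 0.804% of windows genome-wide.

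In Lrfn2, which also binds PSD-95 at excitatory synapses, the body CpG at chr17:49032178 had 0%, 0%, 31.8%, 37.0% and 28.6% in the standard mice. It had 72.7%, 55.0%, 73.3%, 42.0% and 85.4% in the enriched mice and 27.3%, 47.2%, 23.1%, 42.9% and 44.0% in the withdrawal mice. Enriched and standard mice did not overlap, and the withdrawal mice overlapped both. The difference between enriched and standard was 46.2 points (log2 odds 3.25, SE 0.82, limma adjusted p = 0.631). The CpGs 30 and 36 bases away had group means of 68.7% and 77.0% in standard mice, 94.2% and 92.1% after enrichment, and 83.7% and 93.9% after withdrawal. Standard mouse 2 was at 0% over the whole window of these 3 CpGs. The window differed by 28.9 points (log2 odds 2.31, adjusted p = 0.808), and without that mouse the log2 odds difference was 1.23 (adjusted p = 0.775, within a range of 0.741 to 0.895 over the alternatives). The Lrfn2 body, 7 CpGs, was 63.3% ± 12.6, 77.1% ± 8.31 and 71.6% ± 4.83, with adjusted p = 0.730 for enriched against standard. With all rows that have values in at least 3 mice of each group, the body difference shrank to a log2 odds of 0.02.

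**Figure D5:**
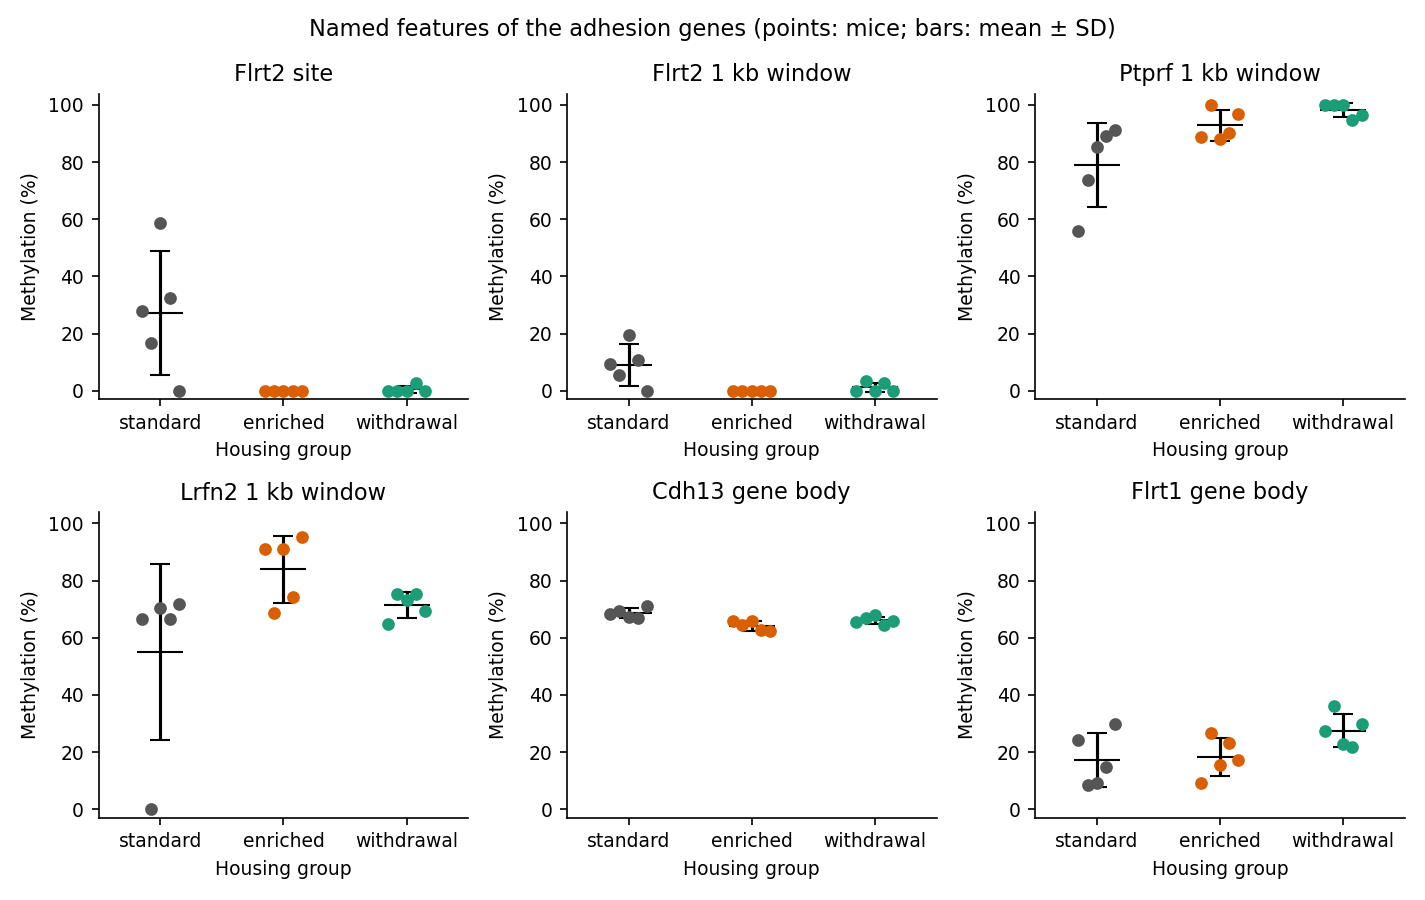
Methylation by mouse (points, percent) in 6 named features of the adhesion genes, by housing group, with the mean and SD over 5 mice (black bars). In the Flrt2 site 4 of 5 standard mice lie above every other mouse, and in the Ptprf window the withdrawal mice lie above the standard mice. None of the 6 passed the adjusted test.

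In Cdh13 the body, over 57 CpGs, was the only member body whose enriched and standard mice did not overlap, beside 0.833% of all bodies. The standard mice had 68.4%, 69.4%, 67.3%, 67.0% and 71.3%, the enriched mice 65.9%, 64.6%, 66.0%, 62.5% and 62.3%, and the withdrawal mice, from 64.4% to 67.8%, overlapped both. The difference between enriched and standard was -4.41 points (log2 odds -0.25, SE 0.10, limma adjusted p = 0.730, from 0.667 to 1 over the alternatives). It did not hold when rows missing in some mice were added, where the log2 odds difference was 0.02 and so of the opposite sign. The Cdh13 and Lrfn2 bodies were the 2 with an unadjusted limma p under 0.05 in enriched against standard. Flrt1 had the only other such body, in withdrawal against standard. It was at 17.3% ± 9.47 in standard mice, 18.4% ± 6.73 after enrichment and 27.5% ± 5.77 after withdrawal, over 3 CpGs (limma adjusted p = 0.946). The groups overlapped in Flrt1.

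The other members with a small p differed little or varied widely between mice. Cntn3 was the gene end with the smallest p, at 2.25% ± 2.11 in standard mice, 0.0556% ± 0.124 after enrichment and 0.889% ± 1.08 after withdrawal (limma adjusted p = 0.865 between enriched and standard). A CpG of Cadm1 at chr9:47571768 was at 95.8% ± 5.82, 72.8% ± 19.3 and 68.9% ± 21.2 (limma adjusted p = 0.961 for withdrawal against standard), and the CpG 72 bases away had the groups in the opposite order, at 76.1%, 89.7% and 97.3%. A CpG of Cntn1 at chr15:92212226 was at 84.1% ± 16.4, 62.5% ± 13.1 and 89.1% ± 15.1 (limma adjusted p = 0.976 for withdrawal against enriched). A CpG beside the Cntn2 start at chr1:132543303 was at 9.37% ± 7.24, 0% and 3.97% ± 4.22 (limma adjusted p = 0.806 between enriched and standard). The Lrrtm3 window at chr10:64088001-64089000 was at 15.6% ± 14.8, 4.03% ± 4.18 and 13.9% ± 6.67 (limma adjusted p = 0.999 for withdrawal against enriched). In Cdh13 the CpGs at chr8:118747714 and chr8:118835690 differed from a comparison group by 9.64 points (withdrawal against standard) and -17.5 points (withdrawal against enriched), neither passing. A CpG of Ptprf at chr4:118217634 differed by -11.4 points between withdrawal and enriched mice, with a limma adjusted p of 0.976.

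The remaining features among the 3 smallest p of their kind were as follows, and none passed. Their values are over rows measured in all mice, so they can differ from the levels over all rows given earlier. The Ptprs window chr17:56474001-56475000 was at 0% in all 5 standard mice. It read 2.47%, 4.52%, 1.29%, 3.03% and 0% in the enriched mice and 1.75% ± 1.51 after withdrawal. Its limma adjusted p was 0.808 between enriched and standard mice, and the groups overlapped. The Cdh13 window chr8:118835001-118836000 was at 94.3% ± 3.53, 93.1% ± 2.22 and 88.8% ± 4.40, listed for standard, then enriched, then withdrawal mice as in the values that follow. The Lrrtm1 body, whose 3 rows measured in all mice lie in 1 window, was at 2.05% ± 1.71, 2.14% ± 2.31 and 0.0612% ± 0.137. The Lrrtm4 start was at 4.53% ± 1.31, 4.55% ± 2.87 and 2.06% ± 1.26. Each of these 3 had its lowest mean in the withdrawal mice. The Lrrtm3 body was at 28.7% ± 5.89, 22.9% ± 4.20 and 28.4% ± 2.04, and the Cntn5 body at 34.7% ± 2.12, 37.8% ± 2.57 and 39.6% ± 4.28. The Cntn5 values rest on 3 rows. Over all 40 of its body rows the groups were at 78.5%, 80.4% and 80.6%. Among gene ends, the lowest and highest group means were 0.936% and 3.03% in Cdh2, 3.84% and 6.51% in Cdh11, 6.50% and 8.21% in Cadm1 and 4.44% and 7.16% in Cntnap4. The Cntn4 start ran from 5.81% to 8.31%. Their limma adjusted p in the comparison that named them ranged from 0.793 to 0.999.

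Groups that do not overlap were also counted over single CpGs. There were 4 of 399 for enriched against standard, beside 0.458% genome-wide, 1 for withdrawal against standard, beside 0.532%, and 0 for withdrawal against enriched, beside 0.51%. The 4 were in Cadm1, Cdh23 (chr10:60567792, 95.5% in standard and 75.0% in enriched mice), Lrfn2 and Nrxn2 (chr19:6532897, 10.2% and 3.20%). The 1 was a second CpG of Cadm1, chr9:47618951, with 39.0% in standard and 54.3% in withdrawal mice.

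Variation among mice of the same housing was alike in the standard and enriched groups. Each mouse was set against the average of its 4 group mates at the 399 CpGs, and the mean distance was 10.8 ± 0.696 points (SD, n = 5) under standard housing, 10.4 ± 0.841 under enrichment and 8.98 ± 1.17 after withdrawal. Over all CpGs tested it was 9.45, 9.40 and 8.07 points, so the lower value in withdrawal mice was shared by the whole table. The withdrawal group also held the mouse with the most rows, and the part of row number in this was not tested.

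For comparison, 62 other synaptic adhesion genes that are no members, such as Slitrk, teneurin, latrophilin and netrin-G genes, were read from the same fits. None of their 736 CpGs, 108 windows, 15 ends or 44 bodies was called. At an unadjusted limma p under 0.05, the CpGs numbered 41, 36 and 32 in the 3 comparisons (5.57%, 4.89% and 4.35%), beside 5.15%, 4.42% and 4.3% genome-wide. The windows numbered 4, 5 and 9 (3.70%, 4.63% and 8.33%), beside 5.71%, 4.8% and 4.39%. The ends numbered 0, 1 and 0 of 15, beside 5.37%, 4.85% and 5.13%, and the bodies 1, 1 and 1 of 44, beside 6.26%, 5.19% and 4.19%. The tissue label could not be checked with this assay. Of 26 marker genes of granule neurons, other neurons, glia and endothelium, 11 had gene-end rows, and 10 of these were under 20%, from Prox1 of granule neurons (1.03%) to markers of astrocytes, oligodendrocytes and endothelium alike. Aldh1l1 of astrocytes was at 34.6%.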

How the data were processed

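Percent methylation per cytosine and strand was deposited by the authors for 15 mice, 5 per housing group, with no coverage. The submitters' processing notes name Trim Galore 0.4.0, cutadapt 1.8.1, Bismark 0.16.1, methylKit 1.5.2 and build mm10, and a coverage minimum or other filter is not given in the sources used here. Of 2918114 rows, the 455836 before the chromosome order restarts were used as CpGs, and all 47249 of them inside RefSeq promoter windows of GRCm38.p6 fell on CG. The other 2462278 rows entered only as an alternative. Every row has values in at least 3 mice per group. Levels use every such row, and tests use rows complete in 15 mice.

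Tests were run with limma 3.58.1 (R 4.3.3) on log2((percent + 5)/(100 - percent + 5)), 3 group means, trended eBayes, two-sided, with Benjamini-Hochberg adjustment across every feature of the same kind. CpGs needed a range of 5 points, and windows, starts (1 kb either side), ends and bodies at least 3 complete rows. Gene strand was known for 17274 of 21631 genes (25 of 39 members), so both gene ends pooled were added after the data were seen, as was a start zone around all listed starts. Features named were, for each kind and comparison, the 3 smallest p, members' bodies and starts with unadjusted p under 0.05, and the 5 windows with the widest and 5 with the narrowest SD among means of 20% to 80%. The CpGs of Cdh23 and Nrxn2 and the second CpG of Cadm1 whose groups did not overlap were named after their values were seen. The fit was tested on simulated data, where it found planted changes least often at single CpGs and most often in bodies. The members, lists and rules were chosen with earlier results of these data known. Alternatives were another offset, the percent scale, a replicate block, other minimum numbers of sites or mice, a 2 kb edge, both runs, and leaving out each mouse. The labels name no cages, so each mouse was treated as an independent replicate. Mice that shared a cage would not be independent, and cage could not be told apart from housing.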

Additional observations from a re-analysis of the deposited data

Results flagged for a closer look

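Within groups of 5 mice, the value farthest from the others was compared with the range of the group, for the named windows and for the gene ends and bodies of the adhesion genes, 165 groups in all. These values use only the rows measured in all mice, so they can differ from the gene levels given earlier. In 13 of them 1 mouse lay apart, and the limit used is one that chance passes in about 1 in 20 groups of independent, normally distributed values. These groups are not independent, since windows and bodies share rows, and some hold 4 values of 0, so that rate need not apply here. In the Lrfn2 window chr17:49032001-49033000 standard mouse 2 read 0% and the others 66.7% to 71.7%, and in the Lrfn2 body, which holds those rows, it had 41.4% against 64.9% to 71.6%. In the Cntn1 window chr15:92234001-92235000 standard mouse 2 read 35.6% and the other standard mice 74.8% to 85.6%. In the Cntn1 body enriched mouse 2 had 72.1% and the others 88.0% to 91.5%. In the Cadm3 body standard mouse 5 had 31.2% (others 19.2% to 21.9%) and enriched mouse 1 had 26.8% (others 20.2% to 20.9%). In the Cadm2 body withdrawal mouse 3 had 73.8% (others 79.6% to 81.0%), and in the Flrt2 body withdrawal mouse 4 had 49.9% (others 43.1% to 44.6%). At gene ends, standard mouse 4 had 10.3% in Cdh2 (others at most 2.69%), standard mouse 1 had 12.6% in Cadm1 (others 6.21% to 7.91%), and enriched mouse 3 had 0.278% in Cntn3 (others 0%). Withdrawal mouse 4 had 0.306% in the Lrrtm1 body, whose only complete rows are those of the window chr6:77243001-77244000, where the other withdrawal mice were at 0%.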

How the results depend on the processing

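Counts of called features stayed at 0 under every alternative run except when standard mouse 5 was left out. Then 1 member CpG, that of Flrt2, was called in enriched against standard and 1, the same, in withdrawal against standard; with 1 mouse left out at a time these counts ranged from 0 to 1, and the counts of the other features stayed at 0. For 45 named results, 908 of 915 alternative values kept their sign and side of the threshold. The 5 that changed sign were small: Cdh13 body, enriched against standard, log2 odds 0.020 with rows in at least 3 mice per group; the Cntn4 start without enriched mouse 5, -0.131 between enriched and standard (range without single mice -0.131 to 0.439) and 0.0727 between withdrawal and enriched (range -0.57 to 0.0727); and the Cntn3 start and end, withdrawal against enriched, -0.0251 with an edge of 2 kb. The cause was not tested. The mean level of member gene starts, 7.67% over 4 genes, was 13.0% with at least 5 sites (2 genes) and 3.32% with rows in at least 3 mice per group (7 genes), and 7.24% to 7.87% without single mice. That of bodies, 47.7% over 27 genes, was 51.2% with 5 sites (23 genes), 49.3% with 3 mice per group (37), 49.8% with a 2 kb edge (25), and 47.5% to 47.9% without single mice; here other genes or rows enter. Counts at an unadjusted p under 0.05 moved more, from 15 to 28 CpGs for enriched against standard without single mice and from 19 to 69 under the other alternatives (17 to 69 for withdrawal against standard and 8 to 57 for withdrawal against enriched). The highest of each is with rows in at least 3 mice per group, where more CpGs are tested. Genome-wide shares under these alternatives are not given here, so the counts are not a result about the members.

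With the replicate number as a block, 0 member features were called in each comparison, and 19, 21 and 8 CpGs had an unadjusted p under 0.05. The genome-wide shares with this block are not given here, so these counts are not a result about the members. Same-numbered mice of different groups did not deviate together at single CpGs (correlations from -0.0146 to 0.0132). How strong a pairing this check could find is unknown, since the read counts are. Without coverage, values from few reads cannot be told from values from many.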
